A study of Mus musculus with 10 samples.

Results

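Natural killer (NK) cell and cytotoxic genes were followed through bulk RNA sequencing of mouse splenic macrophages. The set has 10 genes, chosen by name as the receptors Ncr1, Klrb1c, Klrk1 and Klrd1, the granule genes Gzma, Gzmb, Prf1 and Nkg7, and the T-box transcription factors Eomes and Tbx21. All 10 matched a row of the count table, which has 55414 rows, and all 10 were among the 14669 genes with enough reads to be tested. The samples were 5 libraries from wild-type mice of the C57BL/6N strain (WT) and 5 from mice labelled Fpr2KO, which lack the formyl peptide receptor gene Fpr2. Cells of both groups were taken from the spleen with magnetic beads carrying antibody to F4/80, a macrophage surface protein encoded by Adgre1. The labels give no age, sex or treatment, and they do not say whether each library came from its own mouse, so the p-values measure the spread between these libraries.

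NK cells are innate lymphocytes of blood and spleen that kill infected, stressed or transformed cells. Lectin-like and immunoglobulin-like receptors on their surface read activating and inhibitory ligands on a target. An activated cell releases granules in which perforin makes pores and granzymes, a family of serine proteases, enter the target and start cell death. The T-box factors Eomes and Tbx21 (T-bet) drive NK cell maturation and are also used by effector CD8 T cells. Most of these genes are therefore shared by NK cells, cytotoxic T cells and other innate lymphocytes, and a reading in bulk RNA does not name the cell it came from. In bulk samples, fewer cells of a type and less RNA per cell cannot be told apart.

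The libraries held between 15865820 and 19060188 reads assigned to genes. Fpr2 had 19.2 to 33.6 CPM (reads of a gene scaled to a library of 1e+06 assigned reads) in the WT libraries and 0 reads in all 5 Fpr2KO libraries, where 3 reads would amount to 0.148 to 0.195 CPM. Markers of the labelled cell type were abundant: Adgre1 ranged from 419 to 602 CPM over the 10 libraries, and the 2 highest genes of a 12-gene red pulp macrophage list, Vcam1 and Csf1r, averaged 2119 and 1975 CPM in WT. Other cell types were present too. The summed level of 12 T cell genes was 39.1 to 50.6 CPM in WT libraries and 44.2 to 64.2 CPM in those of Fpr2KO, with none of the 12 at 0 in any library. Cd3e, a chain of the T cell receptor complex, ranged from 1.57 to 3.88 CPM. The library labelled WT replicate 3 stood apart for Cd8a and Cd8b1, which summed to 17.4 CPM against 32.3 to 47.2 CPM in the other WT libraries. Most of this sum was Cd8a, which averaged 33.1 CPM in WT against 2.42 CPM for Cd8b1. The sum therefore does not by itself count CD8 T cells. In the same library the 12 T cell genes summed to 39.1 CPM, against 48.1 to 50.6 CPM in the other WT libraries. That library also had the lowest summed erythroid genes of all 10 at 1461 CPM.

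The promoters of 4 members are shown first because they hold short motifs for the factor families that bear on this set. The letters are the 250 bases before and 50 bases after the RefSeq gene start in GRCm38.p6, given 5′ to 3′ on the strand of the gene. Capitals mark GTGTGA, the core of the T-box element, and TGTGGT, the RUNX element, each on either strand, so that TCACAC and ACCACA are their reverse forms. The windows are chr7:4337465-4337764 on the plus strand for Ncr1, chr14:56262285-56262584 on the minus strand for Gzmb, chr7:43436888-43437187 on the plus strand for Nkg7 and chr6:129623815-129624114 on the minus strand for Klrk1. The Gzmb window lies wholly upstream of the GENCODE M21 locus of Gzmb given below, chr14:56258838-56262260.
Ncr1: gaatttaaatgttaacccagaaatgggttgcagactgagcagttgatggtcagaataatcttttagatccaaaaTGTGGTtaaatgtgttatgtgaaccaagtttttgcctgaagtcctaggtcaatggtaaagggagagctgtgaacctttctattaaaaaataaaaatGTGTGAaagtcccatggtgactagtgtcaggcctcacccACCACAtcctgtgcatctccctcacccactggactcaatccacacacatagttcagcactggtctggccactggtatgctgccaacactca
Gzmb: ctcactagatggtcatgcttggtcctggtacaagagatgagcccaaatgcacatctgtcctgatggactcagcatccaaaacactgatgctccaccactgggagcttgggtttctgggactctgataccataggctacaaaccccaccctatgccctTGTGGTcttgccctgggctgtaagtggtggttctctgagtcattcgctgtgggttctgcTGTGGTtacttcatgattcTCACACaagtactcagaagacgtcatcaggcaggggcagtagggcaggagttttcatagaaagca
Nkg7: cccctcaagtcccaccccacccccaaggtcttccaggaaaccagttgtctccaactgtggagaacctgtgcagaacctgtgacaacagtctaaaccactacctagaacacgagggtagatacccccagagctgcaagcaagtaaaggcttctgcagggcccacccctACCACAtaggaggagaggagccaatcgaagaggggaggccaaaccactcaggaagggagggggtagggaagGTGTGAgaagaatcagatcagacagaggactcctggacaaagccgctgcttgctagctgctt
Klrk1: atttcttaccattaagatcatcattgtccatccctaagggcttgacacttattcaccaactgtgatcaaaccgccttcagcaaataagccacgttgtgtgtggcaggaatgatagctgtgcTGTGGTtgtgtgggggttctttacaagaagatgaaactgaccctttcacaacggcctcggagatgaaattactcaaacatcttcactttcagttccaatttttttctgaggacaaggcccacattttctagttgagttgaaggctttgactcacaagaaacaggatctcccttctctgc

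Of the 10 members, 9 had a promoter in the RefSeq table, Klrd1 being the one without. The T-box core occurred in 3 of the 9, in Ncr1 starting at base 171 of the window, in Gzmb at base 236 and in Nkg7 at base 239, counted from 1 at the 5′ end. It occurred in 14.5% of all 32851 promoters of the same length. The form that is 1 base longer, GGTGTGA, occurred in Nkg7 among the 9 and in 3.98% of all promoters. The RUNX element occurred in 7 of the 9, namely Klrb1c, Klrk1, Ncr1, Nkg7, Prf1, Gzma and Gzmb, against 16.8% of all promoters. Neither T-box factor gene held it. The ETS element GGAAGT, searched on both strands as well, occurred in Klrb1c, Prf1 and Tbx21 and in 23.8% of all promoters. In the 4 windows printed, no T-box match overlapped a RUNX match. These are matches of letters and not measured binding. The genes of factors that can read them were expressed at unequal levels: Runx3 averaged 75.7 ± 7.0 CPM in WT (SD, n = 5) and Ets1 averaged 290 ± 51 CPM, whereas the T-box members had the levels given below.

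The set divided into 2 receptor genes above 20 CPM and 8 genes under 10 CPM. Klrk1 and Klrd1 together made up most of the summed level of the set: all 10 genes summed to 64.5 to 82.2 CPM in WT libraries and 67.1 to 88.9 CPM in the Fpr2KO ones, and the 8 others to 15.4 to 20.8 CPM and 18.3 to 23.7 CPM. To compare genes with one another, CPM was divided by the exon length of each gene in kilobases. On that scale Klrd1 was highest, with a mean of 23.4 ± 4.3 CPM per kb (SD, n = 10), and Klrk1 followed with 3.61 ± 0.47 CPM per kb. Klrk1 has 7183 bases of annotated exon against 1281 for Klrd1, which is why the pair is close in CPM and far apart per length. Tbx21 came next with 2.51 ± 0.68 CPM per kb. Gzmb, Gzma, Prf1 and Nkg7 followed at 1.66, 1.56, 1.55 and 1.53 CPM per kb. Ncr1 had 0.564, Klrb1c 0.484 and Eomes 0.294 CPM per kb. Klrd1 was above Klrk1 in 10 of 10 libraries with no overlap of their ranges. Every other pair of neighbours in this order overlapped in range, although Nkg7 exceeded Ncr1 within each of the 10 libraries.

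**Figure D1:**
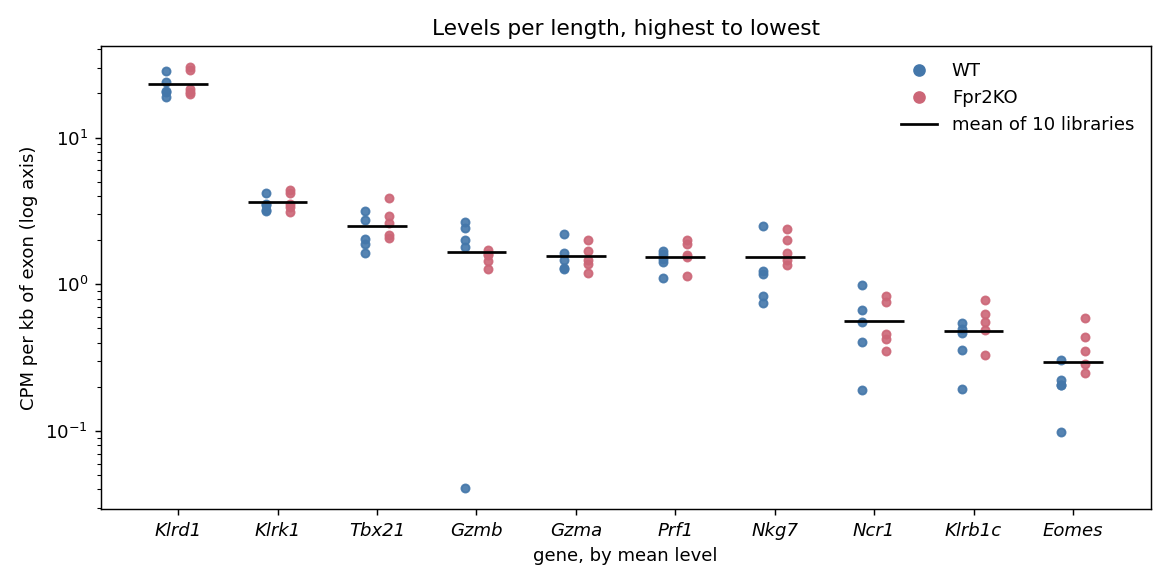
CPM per kb of exon (log axis) of the 10 genes in each of the 10 libraries, ordered by mean level; blue points are WT, red points are Fpr2KO and the black line is the mean of 10 libraries. Klrd1, at 19.03 to 30.3 CPM per kb, stands clear of all others, and 1 Gzmb point lies far below the rest.

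The comparison of genotypes asked whether these genes differ in the F4/80 fraction of the spleen when Fpr2 is missing. None of the 10 genes differed at a false discovery rate (FDR) of 0.05 in edgeR's quasi-likelihood test with Benjamini-Hochberg adjustment over all 14669 genes, where 0.0682% of genes were called. DESeq2 and limma voom called none of the 10 either. The lowest adjusted p among them was 0.399, for Eomes. At an unadjusted p under 0.05, 1 of the 10 was called, again Eomes, against 9.8% of all genes. The estimate was higher in Fpr2KO for 8 genes and lower for 2, with a median log2 fold change of 0.13 beside 0.01 for all genes tested, of which 53.2% had a higher estimate. For all 10 genes the WT and Fpr2KO libraries overlapped; 1.39% of all genes had groups that did not overlap. The 95% interval of the difference held 0 for 9 of the 10 genes and was narrower than 1 log2 unit for 4 of them, Klrk1, Klrd1, Prf1 and Tbx21, so these data bound a change best for those genes.

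**Figure D2:**
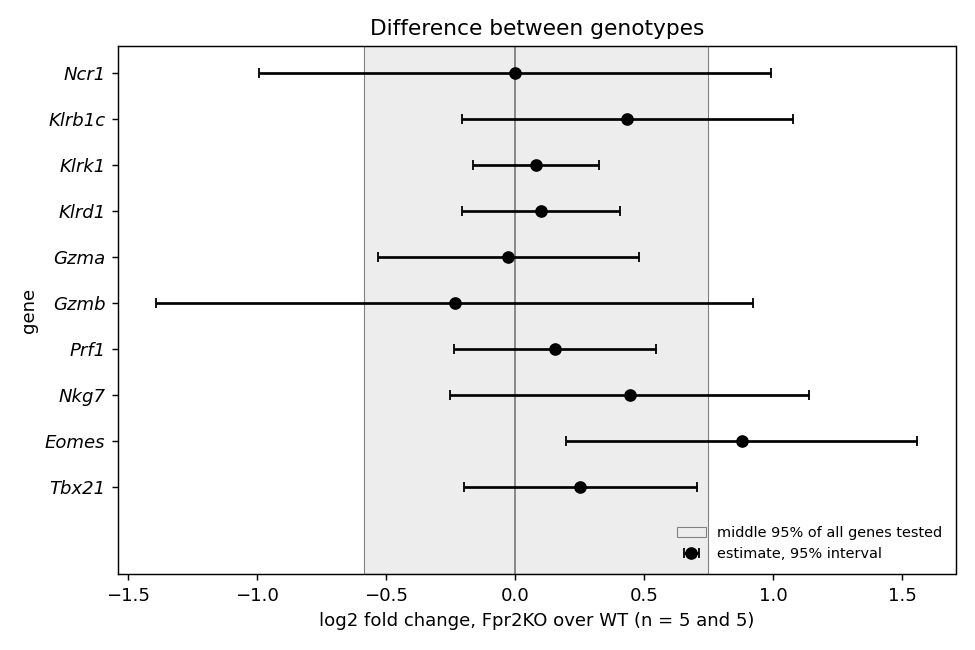
Estimated log2 fold change of Fpr2KO over WT for each gene, with its 95% interval from the edgeR fit (n = 5 and 5); the shaded band spans the middle 95% of all genes tested, from -0.59 to 0.74. The interval of Eomes alone lies to the right of 0, and those of Ncr1 and Gzmb are the widest.

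Among the receptors, Klrk1 (NKG2D, an activating receptor for stress-induced ligands, chr6:129610323-129623864) and Klrd1 (CD94, the partner chain of NKG2 receptors for the non-classical MHC molecule Qa-1, chr6:129591782-129598775) were the best measured members. Klrk1 had 25.2, 30.0, 23.01, 25.1 and 22.8 CPM in WT libraries 1 to 5 and 22.2, 31.6, 25.2, 24.2 and 30.0 CPM in Fpr2KO libraries 1 to 5. The ranges overlapped, with 2 Fpr2KO libraries above and 1 below every WT library, and the log2 fold change was 0.08 (SE 0.11, 95% interval -0.16 to 0.32, edgeR adjusted p = 0.842). Klrd1 had 30.6, 36.6, 26.1, 24.4 and 26.8 CPM in WT and 26.3, 36.9, 27.5, 25.3 and 38.8 CPM in Fpr2KO. WT library 2 and Fpr2KO libraries 2 and 5 were the highest for both genes, and the log2 fold change of Klrd1 was 0.10 (SE 0.14, 95% interval -0.21 to 0.41, edgeR adjusted p = 0.842). Their ratio was steady, with 5.45 to 7.24 CPM per kb of Klrd1 for each CPM per kb of Klrk1 over the 10 libraries.

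The 2 receptors that are used to define mouse NK cells were near the bottom of the set. Ncr1 (NKp46, an activating immunoglobulin-like receptor, chr7:4337724-4345164) had 1.53, 1.03, 0.293, 0.857 and 0.624 CPM in WT and 1.17, 1.27, 0.654, 0.711 and 0.544 CPM in Fpr2KO. These rest on 5 to 24 reads a library, 148 in all, and the 5 reads of WT library 3 have an exact 95% Poisson interval of 1.62 to 11.7 for counting error only. The log2 fold change was 0.00 with a wide interval of -0.99 to 0.99 (edgeR). Klrb1c (NK1.1, a lectin-like activating receptor, chr6:128778485-128789215) had 0.573, 1.62, 1.05, 1.37 and 1.48 CPM in WT and 0.976, 1.46, 1.84, 1.64 and 2.32 CPM in Fpr2KO. In 3 Fpr2KO libraries Klrb1c was above every WT library, yet the log2 fold change of 0.43 (SE 0.30) did not pass (edgeR adjusted p = 0.658). Klrb1c overlaps the predicted gene Gm44511 on the same strand and shares 21.2% of its 31-base words with other genes, so its count is uncertain. Per length, Klrd1 exceeded Ncr1 by 24.1 to 107 times within a library and Klrk1 exceeded it by 3.54 to 16.9 times.

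Klrd1, Klrk1 and Klrb1c sit in the NK gene complex of chromosome 6 (GRCm38, GENCODE M21), where Klrd1 and Klrk1 are neighbours 11547 bases apart. Of 26 Klr genes on that chromosome, 16 were tested and 5 averaged above 10 CPM: Klra2 at 76.3 CPM, Klri1 at 31.8, Klrd1 at 29.9, Klrk1 at 25.9 and Klri2 at 12.2. The highest of the other 21 was Klrb1f at 5.74 CPM. Klri1 and Klri2, which encode lectin-like receptors, lie in the same stretch as Klrd1 and Klrk1, and Klra2, a gene of the Ly49 family, lies at the far end of the complex. The genes that code for the partners of CD94 were lower, with Klrc1 (NKG2A, the inhibitory partner) at 4.89 CPM, Klrc2 at 0.891 CPM and Klrc3 at 0.0728 CPM. Klri1, Klri2, Klra2 and the Klrc genes were picked out here after their values were seen, and sequence shared between paralogs of this complex can move reads between them.

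**Figure D3:**
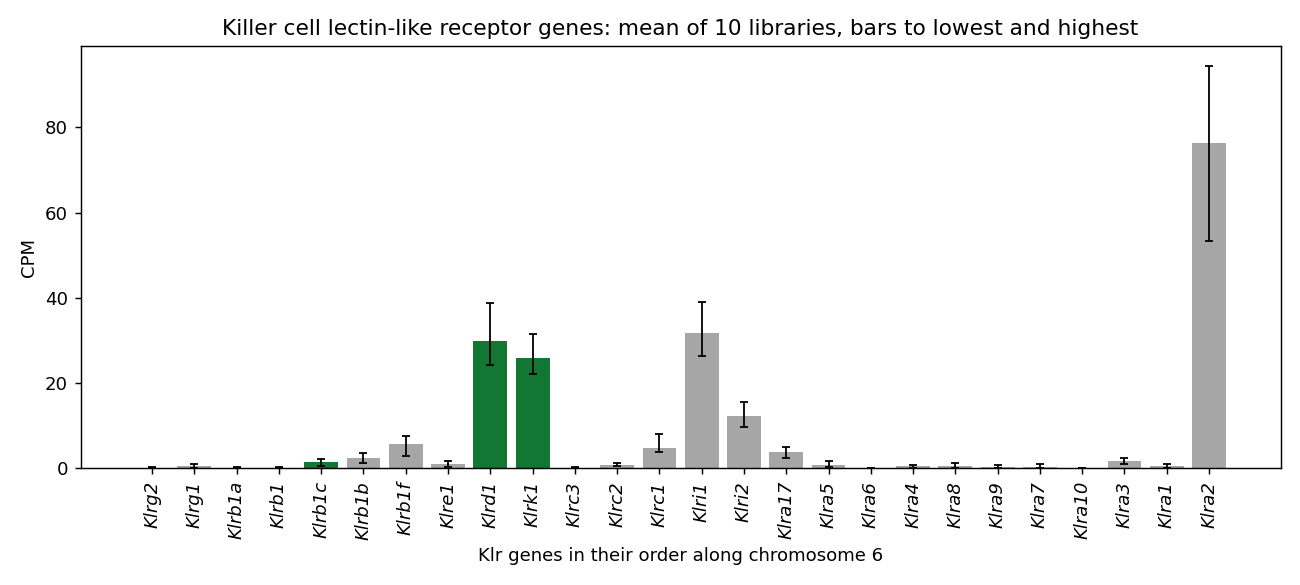
Mean CPM of each killer cell lectin-like receptor gene over the 10 libraries, in order along chromosome 6, with bars to the lowest and highest library; green marks the 3 genes of the set. Klrd1, Klrk1, Klri1, Klri2 and Klra2 stand above 10 CPM and the other 21 genes reach at most a mean of 5.74 CPM.

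Among the granule genes, Prf1 (perforin, chr10:61297833-61304680) had the most reads, 687 in all. It had 4.14, 2.86, 3.69, 4.34 and 3.86 CPM in WT and 4.88, 3.94, 5.18, 4.10 and 2.97 CPM in Fpr2KO. The groups overlapped and the log2 fold change was 0.15 (SE 0.18, 95% interval -0.24 to 0.54, edgeR adjusted p = 0.802). Gzma (granzyme A, a tryptase, chr13:113093825-113100981) had 1.46, 1.30, 1.29, 2.23 and 1.65 CPM in WT and 1.69, 1.39, 2.02, 1.20 and 1.48 CPM in Fpr2KO. Neither group was above the other, and the log2 fold change was -0.03 (SE 0.24, edgeR adjusted p = 0.978). Nkg7, a granule membrane protein needed for efficient degranulation (chr7:43437073-43438249), had 1.08, 1.13, 0.761, 2.28 and 0.681 CPM in WT and 1.24, 1.33, 1.84, 2.19 and 1.48 CPM in Fpr2KO. WT library 4 was above every Fpr2KO library, while the other 4 WT libraries were below all of Fpr2KO. The log2 fold change of Nkg7 was 0.44 (SE 0.32, edgeR adjusted p = 0.676) and 0.82 without WT library 4, where the adjusted p was still 0.251.

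Gzmb (granzyme B, which cleaves after aspartate and activates caspases, chr14:56258838-56262260) had 3.50, 2.59, 0.0586, 3.83 and 2.90 CPM in WT and 2.08, 2.30, 2.26, 2.46 and 1.83 CPM in Fpr2KO. WT library 3 held 1 read of Gzmb, with an exact 95% Poisson interval of 0.0253 to 5.57 reads for counting error only, while the other 9 libraries held 32 to 67. The other 4 WT libraries were all above the 5 Fpr2KO libraries. The log2 fold change was -0.24 (SE 0.53, 95% interval -1.39 to 0.92, edgeR adjusted p = 0.908) with all libraries and -0.55 without WT library 3, which did not pass either (edgeR adjusted p = 0.525). In that same library Cd8b1, the beta chain of the CD8 co-receptor, was at 1.05 CPM, the lowest of the 10, and Ncr1 and Eomes were also at their lowest. Its Prf1 level of 3.69 CPM and its Tbx21 level of 7.85 CPM were not low. The part of cells that express Cd8a or Cd8b1 in the Gzmb reading was not tested.

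Spread within a group differed among the granule genes. The coefficient of variation (CV) of Gzmb was 57.8% in WT, where read counting alone gives 15.01%, and 11.04% in Fpr2KO, where counting gives 16.2%. Without WT library 3, left out after the values were seen, the CV of Gzmb over the other 4 WT libraries was 17.5%, where counting gives 13.5%. Gzma varied by 24.5% in WT and 20.1% in Fpr2KO, close to the 19.1% and 19.2% of counting alone. Klrd1 varied by 16.9% and 20.5%, several times its counting error of 4.47% and 4.29%. The difference in spread between the genotypes was not tested.

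The T-box factors gave the highest median estimate of the 3 roles, 0.56 on the log2 scale, from 2 genes. Eomes (chr9:118478212-118486132) had 1.27, 0.918, 0.410, 0.857 and 0.852 CPM in WT and 1.04, 1.46, 2.44, 1.80 and 1.19 CPM in Fpr2KO. In 3 Fpr2KO libraries Eomes was above every WT library, and the other 2 were below WT library 1. The log2 fold change was 0.88 (SE 0.32, 95% interval 0.20 to 1.56), with an unadjusted p of 0.0151 and an adjusted p of 0.399 in edgeR, so the difference did not pass over all genes. It rests on 7 to 41 reads a library, and leaving out 1 library at a time gave 0.67 to 1.04. Eomes overlaps the antisense gene Gm33460 and shares 2.59% of its 31-base words with other genes, and in the overlapped stretch reads of the 2 genes cannot be told apart without a known strand setting. Tbx21 (chr11:97098071-97115331) had 4.71, 4.05, 7.85, 5.08 and 6.81 CPM in WT and 5.40, 7.28, 5.18, 9.57 and 6.47 CPM in Fpr2KO. Fpr2KO library 4 was the highest and the groups otherwise overlapped, with a log2 fold change of 0.25 (SE 0.21, 95% interval -0.20 to 0.70, edgeR adjusted p = 0.709). Per length, Tbx21 exceeded Eomes in all 10 libraries, by 3.54 to 32.0 times.

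**Figure D4:**
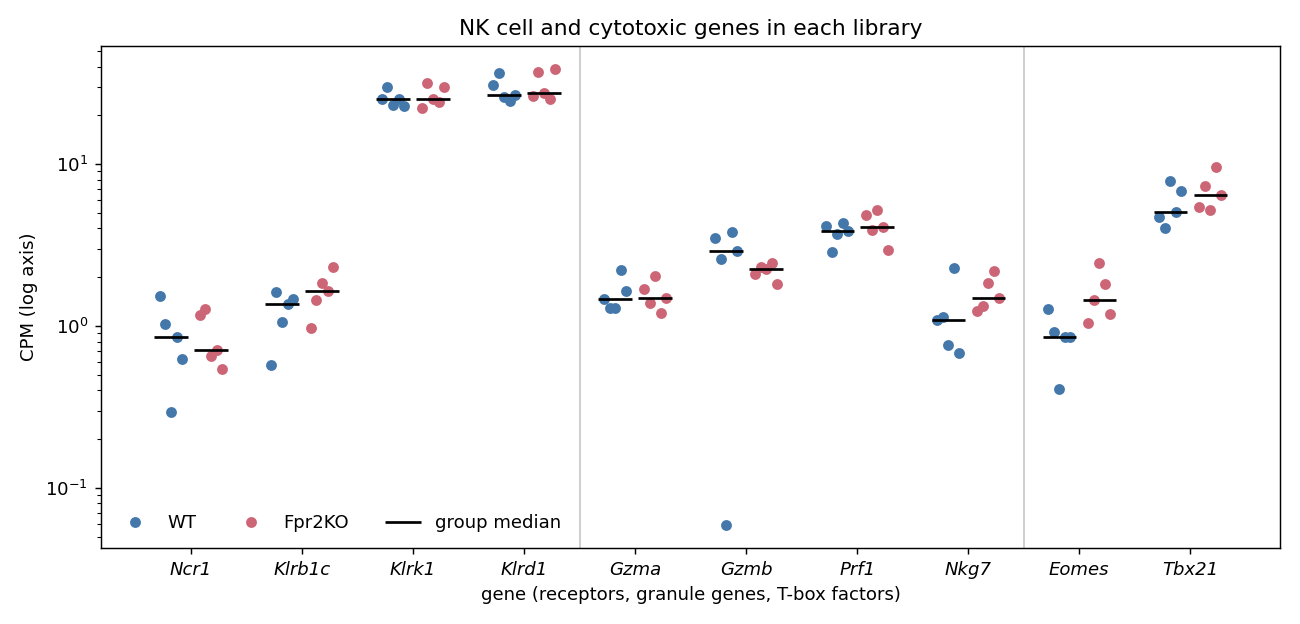
CPM (log axis) of each gene in each library, with WT in blue, Fpr2KO in red and the group median as a black line; vertical lines separate receptors, granule genes and T-box factors. The 2 groups overlap for all 10 genes, and the Gzmb point of WT library 3 lies at 0.0586 CPM.

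Several marker lists had estimates mostly or wholly to one side in the same libraries, though no gene of the lists below passed the FDR. Their summed levels overlapped between genotypes except for the gamma-delta T and NKT cell list, which averaged 15.75 CPM in WT and 12.46 CPM in Fpr2KO. Most of that sum was Zbtb16, at a mean of 11.57 CPM in WT and 8.55 CPM in Fpr2KO. Zbtb16 was the 1 tested gene of that list whose groups did not overlap (edgeR adjusted p = 0.413). Trdc, at 1.33 and 1.20 CPM, overlapped, so the separate sums do not by themselves count these cells. The 8 erythroid genes summed to 1461 to 5705 CPM in WT libraries and 3812 to 9300 CPM in those of Fpr2KO, and all 8 had an unadjusted p under 0.05 in the higher direction in edgeR, against 4.88% of all genes. The 12 neutrophil genes summed to 939 to 1564 CPM in WT and 532 to 991 CPM in Fpr2KO. The 6 classical monocyte genes summed to 653 to 1094 and 405 to 686 CPM, and the 8 basophil and mast cell genes to 61.4 to 104 and 43.0 to 64.5 CPM. The 8 immediate early genes, which mark cell activation rather than a cell type, summed to 11499 to 17147 and 9493 to 11781 CPM. At an unadjusted p under 0.05 in edgeR, 8 of 11 neutrophil genes tested were lower, against 4.92% of all genes. The same held for 5 of 6 classical monocyte, 7 of 8 immediate early and 2 of 8 basophil and mast cell genes. The 12 T cell genes had 10 higher and 2 lower estimates with a median log2 fold change of 0.24, and the 8 B cell genes were all higher in estimate with a median of 0.22. At 0 in at least 1 library were the erythroid gene Klf1 and, among 6 markers of helper-like innate lymphoid cells, Il22. The part of these lists in the differences of the 10 genes was not tested.

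Across libraries, after subtracting the mean of each genotype, the 10 genes did not move as one. Of their 45 pairs, 29 had a positive and 16 a negative Pearson correlation over the 10 libraries, with a median r of 0.12. In exact permutation tests within genotype, 4 pairs had a raw p under 0.05 and 0 did after Benjamini-Hochberg adjustment over the 45. Klrk1 and Klrd1 had the highest r of 0.90 (exact permutation p = 0.00799, adjusted 0.345) with a Spearman rho of 0.73 (exact permutation p = 0.0292, adjusted 0.575), and r was 0.80 without WT library 2 and Fpr2KO library 2. The r of this pair was 0.83 within WT and 0.94 within Fpr2KO. Klrd1 and Prf1 had the lowest r of -0.78 (exact permutation p = 0.0188, adjusted 0.345; rho -0.68, exact permutation p = 0.0570, adjusted 0.575), which came to -0.40 without WT library 2 and Fpr2KO library 5. Gzmb and Eomes had an r of 0.71 (exact permutation p = 0.0230, adjusted 0.345; rho 0.59, exact permutation p = 0.0387, adjusted 0.575), and 0.42 without WT library 3. Klrk1 and Prf1 had an r of -0.69 (exact permutation p = 0.0465, adjusted 0.456; rho -0.59, exact permutation p = 0.110, adjusted 0.709) and -0.63 without WT library 2 and Fpr2KO library 2.

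**Figure D5:**
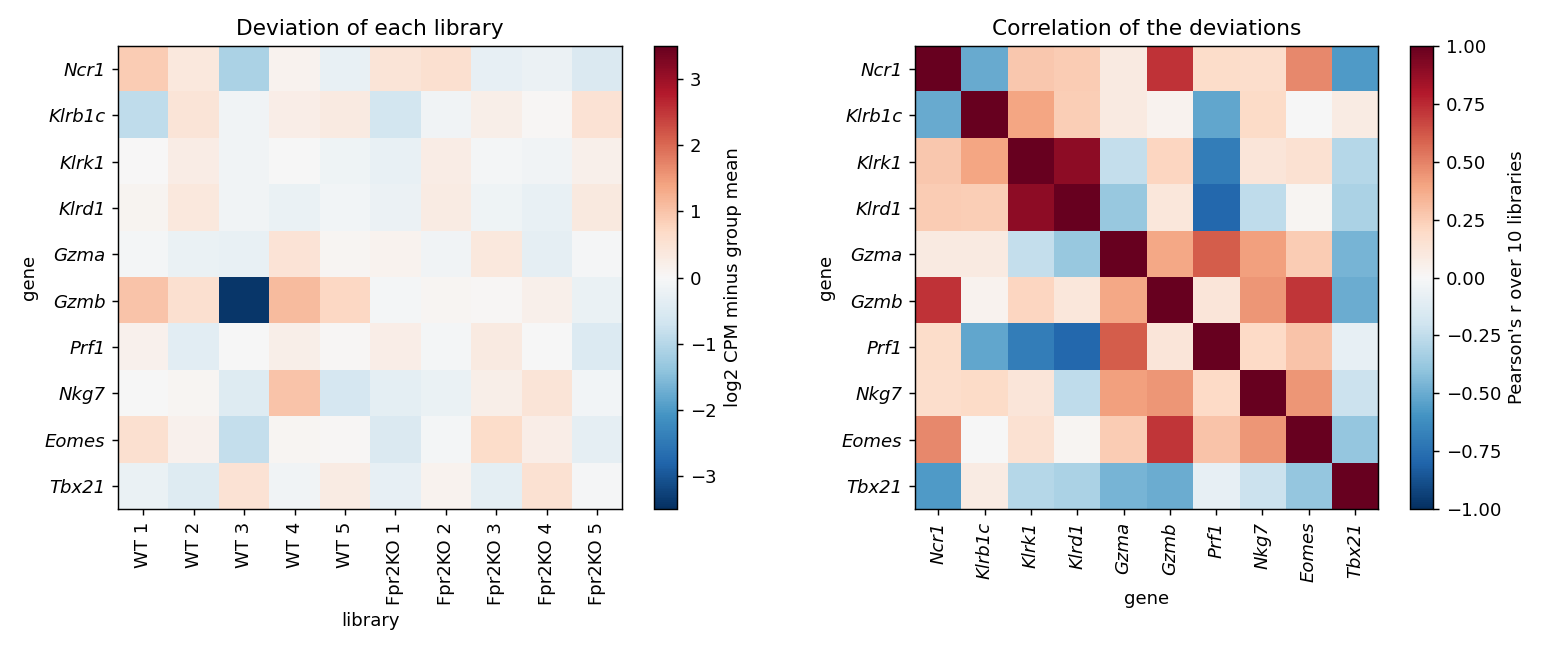
Left, the deviation of each gene in each library from the mean of its genotype in log2 CPM; right, Pearson's r of these deviations for each pair of genes over 10 libraries. Klrk1 and Klrd1 form the strongest positive pair at 0.90, and Gzmb in WT library 3, at -3.39, is the largest deviation.

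Correlations with other genes of the complex were uneven. In 12 pairs chosen after the values were seen, Klrk1 had an r of 0.94 with Klri1 and 0.85 with Klri2 over the 10 libraries, and Klrd1 had 0.87 and 0.91. With Klrc1, which lies between Klrk1 and Klri1, the r was 0.47 and 0.40, and with Klra3 it was 0.62 and 0.74. With Cd3e the r was -0.24 for Klrk1 and -0.36 for Klrd1, and with Adgre1 it was 0.40 and 0.56. These are descriptions only: of 12536 protein-coding genes, 12 had an r with Klrk1 at least as high as Klri1 had, and 78 had an r with Klrd1 at least as high. For Gzmb, 6 pairs were also picked after the values were seen. Its r over the 10 libraries was 0.96 with Cd8b1 and 0.92 with Cd8a. Among 6 listed markers of plasmacytoid dendritic cells, it was 0.94 with Klk1, 0.76 with Ccr9 and 0.68 with Siglech. Tcf4, Bst2 and Pacsin1 of that list were not among the pairs. Without WT library 3 the r values, in the same order from Cd8b1 to Siglech, were 0.85, 0.50, 0.48, 0.12 and 0.09. With the T cell gene Cd3e it was 0.30, and 0.72 without that library. These correlations share library depth and composition.

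The 12 protein-coding genes whose deviations were most like the mean deviation of the set, by Pearson's r over 10 libraries, were Cd8b1 at 0.95, Zfp994, Rbm34, Zfp78, Klk1, Brdt, Clec9a, Rmnd1, Dtl, Zfp275, Rpa3 and Zmat1 at 0.91. Each of the 12 was lowest in WT library 3, the library with the lowest mean of the set, at 0.59 log2 units below the WT mean. Without that library their r fell to between 0.42 for Clec9a and 0.79 for Zfp78, so the likeness rests in large part on 1 library. Clec9a, a receptor of cross-presenting dendritic cells, was at 18.2 CPM in WT library 3 against a highest value of 37.9 CPM.

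Around the 10 genes, 9 lists of other genes of NK cell function held 118 genes, of which 114 matched and 90 were tested. None passed the FDR in edgeR, where 0.0682% of all genes did. At an unadjusted p under 0.05, 5 were higher and 9 lower in Fpr2KO, against 4.88% and 4.92% of all genes, and DESeq2 called 2 at an adjusted p under 0.05, Il18rap and Ccl3, both lower. Estimates were higher for 44 and lower for 46, with a median log2 fold change of -0.01. Il18rap was the 1 gene whose groups did not overlap, against 1.39% of all genes.

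Of the other NK receptors, 18 of 24 were tested, with 11 higher and 7 lower estimates. Cd244a (2B4, a receptor for CD48) averaged 113 ± 17 CPM in the WT and 88.8 ± 11.4 CPM in the Fpr2KO libraries (SD, n = 5 each), a log2 fold change of -0.34 (edgeR adjusted p = 0.362). Tigit, an inhibitory receptor of lymphocytes, had 1.49 ± 0.45 and 2.50 ± 1.11 CPM (log2 fold change 0.74, edgeR adjusted p = 0.473), and Klrb1b had 2.00 ± 0.61 and 2.82 ± 0.73 CPM. Of 11 genes listed as ligands of NK receptors, 4 were tested and none had an unadjusted p under 0.05 in edgeR. H2-T23, the gene of the Qa-1 ligand of CD94 and NKG2A, was at 322 ± 59 CPM without and 343 ± 39 CPM with the deletion, and Clec2d at 71.0 ± 4.9 and 73.8 ± 7.2 CPM. Cfp (properdin, described as a ligand of NKp46) was at 480 ± 52 and 526 ± 63 CPM.

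Of 12 adaptors and signalling genes downstream of the receptors, 10 were tested. Cd247, the CD3 zeta chain that also couples to NKp46, had 1.83 ± 0.28 and 2.70 ± 1.00 CPM (log2 fold change 0.56, edgeR adjusted p = 0.493), and 57.7% of its 31-base words are shared with other genes. Sh2d1b1 (EAT-2) had 52.2 ± 9.0 and 45.3 ± 5.7 CPM, and Fcer1g had 336 ± 53 and 300 ± 30 CPM. Adaptors that NKG2D uses were also read: Tyrobp (DAP12) had 260 to 382 CPM and Hcst (DAP10) had 8.06 to 15.1 CPM over the 10 libraries. Tyrobp and Fcer1g are also expressed by macrophages.

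Granzyme reads other than those of the set were scarce. Of 8 further granzyme genes, 5 (Gzmd, Gzme, Gzmf, Gzmg and Gzmn) had 0 reads in all 10 libraries, where 3 reads in a library amount to 0.148 to 0.195 CPM, Gzmc had 1 read and Gzmk 9 reads in all. Gzmm was tested and had 0.488 ± 0.125 and 0.732 ± 0.295 CPM in the 2 genotypes (log2 fold change 0.57, edgeR adjusted p = 0.618). Ctsw, a lymphocyte cathepsin, had 1.93 ± 0.32 and 2.28 ± 0.68 CPM. Srgn, the proteoglycan that holds granule contents in many blood cells, was far higher at 547 ± 90 and 432 ± 69 CPM, a log2 fold change of -0.34 (unadjusted p = 0.0194, adjusted p = 0.416 in edgeR). Of 7 granule exocytosis genes tested, Rab27a, which docks granules at the membrane, had 36.1 ± 3.5 and 31.1 ± 1.7 CPM (log2 fold change -0.22, edgeR adjusted p = 0.430). Lyst and Stx11 had log2 fold changes of -0.21 and -0.12.

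Secreted effectors and cytokine receptors had the lowest p-values of the lists. Il18rap, the accessory chain of the interleukin-18 receptor, had 16.2 to 24.4 CPM in WT and 10.3 to 15.3 CPM in Fpr2KO. Its log2 fold change was -0.68 (SE 0.14, unadjusted p = 0.000200, adjusted p = 0.112 in edgeR). Ccl3 and Ccl4, chemokines made by activated NK cells and by macrophages, had log2 fold changes of -0.57 and -0.46 (edgeR adjusted p = 0.165 and 0.242). Ccl3 had 71.6 to 115 CPM in WT and 57.7 to 79.7 CPM in Fpr2KO. Tnf had a log2 fold change of -0.41 (edgeR adjusted p = 0.571). Ifng, the main cytokine of NK cells, was at 1.11 ± 0.31 CPM in the WT libraries and 1.08 ± 0.35 CPM in the others. Il15ra, which presents interleukin-15 to NK cells, and Tgfbr1 had log2 fold changes of -0.42 and -0.29 (edgeR adjusted p = 0.356 and 0.405). All 8 immediate early genes had lower estimates in Fpr2KO, none past the FDR, among them Fos with a log2 fold change of -0.40 (edgeR adjusted p = 0.248), and their part in these values was not tested.

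Of 12 further transcription factors of the NK lineage, 11 were tested. Nfil3, needed early in NK cell development and expressed in myeloid cells too, had 31.6 to 47.7 CPM in WT and 19.2 to 34.9 CPM in Fpr2KO, a log2 fold change of -0.51 (edgeR adjusted p = 0.253). Id2 and Tox had log2 fold changes of -0.24 and 0.61 (edgeR adjusted p = 0.540 and 0.580). Of 13 maturation and trafficking genes, all were tested, with 5 higher and 8 lower estimates and a median log2 fold change of -0.10. The chemokine receptor gene Cxcr6 had 1.15 ± 0.34 and 1.90 ± 0.60 CPM (log2 fold change 0.72), and Cd27, high on immature NK cells and on T cells, had 1.27 ± 0.32 and 2.00 ± 0.52 CPM (log2 fold change 0.65). The adjusted p in edgeR was 0.435 for Cxcr6 and 0.436 for Cd27. Cxcr6, Cd27, Tigit, Cd247 and Tox, like Eomes, Nkg7 and Klrb1c, were under 3 CPM on average in both groups and had higher estimates in Fpr2KO. Not all genes at that level did. Ncr1, Gzma, Gzmb, Cd96 and Ifng were also under 3 CPM, with log2 fold changes of 0.00, -0.03, -0.24, -0.15 and -0.02. Of the T cell genes given above, 10 of 12 had higher estimates in Fpr2KO, as did both CD8 T cell genes. The CD4 T cell list had 2 higher and 2 lower, and all 5 gamma-delta T and NKT cell genes tested were lower. The part of these lists in these values was not tested.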

How the data were processed

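RNA of 10 libraries was sequenced from polyadenylated RNA, per the labels' protocols. The authors deposited raw read counts per Ensembl gene, and the submitters' processing notes name HTSeq 0.10.0, FastQC 0.10.1 and the builds mm10 and GRCm38. The aligner, strand setting and annotation release were not given in the sources used here. Symbols, loci and exon lengths came from GENCODE M21, which matched 52081 of 55414 rows. Genes kept by filterByExpr (14669) were tested with edgeR 4.0.16 (TMM, robust quasi-likelihood, two-sided, Benjamini-Hochberg, FDR 0.05) on R 4.3.3. CPM used TMM library sizes, and log2 CPM a prior count of 2. The 20 pairs of libraries within a group differed by 12.4 to 68.2 times the counting variance, so none was treated as a duplicate. The members and lists were chosen with earlier results of these data known. Named genes were all members, 3 with the smallest p of each NK list, 2 with the highest CPM of each marker list, and 12 of like pattern, and any others are given as values; 1 gene that this rule names is not reported here. Alternatives were other scalings, filters, DESeq2 1.42.0, limma 3.58.1 voom, a replicate block and leaving out each library.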

Additional observations from a re-analysis of the deposited data

Results flagged for a closer look

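Gzmb in the third WT library was 0.0586 CPM, from 1 read, and lay far from the other 4 WT libraries: on the log2 scale its gap to the nearest of them was 0.88 of the range of the group, above the critical value of Dixon's test for 5 samples. Of 20 such tests over the 10 genes and 2 genotypes, this was the 1 that passed, and chance gives about 1 in 20.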

How the results depend on the processing

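None of the 10 genes passed the FDR under any of the 17 alternatives, and their median log2 fold change ranged from 0.09 to 0.20. Leaving out 1 library gave 0.09 to 0.20 for that median, 0 to 2 calls in the NK lists and 8 to 51 calls among all genes (26 without Fpr2KO replicate 2, 26 without WT replicate 4 and 51 without WT replicate 5). The NK lists gave 2 calls, Il18rap and Ccl3, with DESeq2, with no filter and without WT replicate 4, and all genes gave 185 calls with DESeq2 and 62 with no filter. With the replicate number as a block, all genes gave 64 calls and the NK lists 1, Nfil3. Same-numbered libraries correlated at -0.10, 0.29, -0.10, 0.25 and -0.24. The same-numbered WT library was the best match for Fpr2KO libraries 2 and 4 but not for 1, 3 and 5. Whether the numbers pair the libraries was not tested. Of 169 single-gene values, 11 changed sign, none past the FDR. Ncr1 came to -0.0049 with DESeq2, -0.0078 with RLE scaling, and ranged from -0.22 to 0.29 on leaving out 1 library (-0.14 without Fpr2KO replicate 1, -0.19 without Fpr2KO replicate 2, -0.22 without WT replicate 3, -0.0017 without WT replicate 4, -0.10 without WT replicate 5). Gzma ranged from -0.14 to 0.13 (0.0012 without Fpr2KO replicate 2, 0.05 without Fpr2KO replicate 4, 0.13 without WT replicate 4), and Gzmb came to 0.49 with limma voom. The cause was not tested. A filter of 1 CPM in 5 libraries removed Ncr1. Read counts under 50 per library limit Ncr1, Klrb1c, Gzma, Nkg7 and Eomes.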
